A study of Mus musculus with 12 samples.

Results

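The 9 genes described here are the embryonic globin genes *Hbb-y*, *Hbb-bh1* and *Hba-x*, the adult globin genes *Hba-a1*, *Hba-a2*, *Hbb-bs* and *Hbb-bt*, and the erythroid genes *Alas2* and *Slc4a1*. They were chosen by symbol, and all 9 were found among the 16152 genes of the deposited count table and the 51825 genes of the CPM table. The libraries were made from C57BL/6 mice, with no treatment given, males and females, as RNA of the whole lung, at 2 embryonic time-points (E15.5 and E18.5) and 2 postnatal time-points (P5 and P8), with 3 replicates at each. The 3 replicates at each time-point were littermates, so litter and time-point cannot be told apart, and p-values measure the spread between them. The lungs were removed and frozen, and no removal of blood from them is described in the sources used here.

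Haemoglobin is a tetramer of a pair of alpha-like and a pair of beta-like globin chains, each holding a haem group. The first red cells of the mouse embryo arise in the yolk sac and use the embryonic globins, and the red cells that later come from the fetal liver and the bone marrow use the adult globins, so that the embryonic transcripts are replaced in the blood as development goes on. Reticulocytes, the youngest red cells in the circulation, still carry globin RNA, while mature red cells carry little RNA. In RNA of a whole tissue, fewer cells of a type and less RNA per cell cannot be told apart.

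The genes of each family lie in a cluster with the embryonic genes at its upstream end (GRCm38 coordinates from the Gencode annotation). On the minus strand of chromosome 7 are *Hbb-y* (ENSMUSG00000052187.4, chr7:103851749-103853216), an embryonic beta-like chain, *Hbb-bh1* (chr7:103841637-103843164), the other embryonic beta-like chain, and the adult beta genes *Hbb-bs* (chr7:103826534-103828096) and *Hbb-bt* (chr7:103812524-103813996). On the plus strand of chromosome 11 are *Hba-x* (chr11:32276400-32278116), the embryonic alpha-like chain, and the adult alpha genes *Hba-a1* (chr11:32283511-32284465) and *Hba-a2* (chr11:32296489-32297298). The main transcript of each globin gene has 3 exons. *Slc4a1* (chr11:102348824-102366203, minus strand) encodes band 3, the anion exchanger of the red cell membrane, and *Alas2* (chrX:150547375-150570638, plus strand) encodes the erythroid form of the first enzyme of haem synthesis. Of the 2403 exon bases of *Alas2*, 311 lie within exons of *Apex2* on the opposite strand, and the sources used here do not say whether strand was used in counting.

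The coding sequences show which globin genes the reads could tell apart. The first 60 coding bases of the beta-like genes are given from the Gencode transcripts, with the bases that differ from *Hbb-bs* in capitals.

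Hbb-bs: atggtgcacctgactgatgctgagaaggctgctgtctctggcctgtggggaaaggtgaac
Hbb-y: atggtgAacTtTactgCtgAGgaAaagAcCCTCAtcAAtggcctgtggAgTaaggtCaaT
Hbb-bh1: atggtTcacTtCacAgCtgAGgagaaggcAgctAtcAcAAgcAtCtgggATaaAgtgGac

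*Hbb-bt* has the same 60 bases as *Hbb-bs* and differs from it at 1 of 441 coding bases, while *Hbb-y* differs from *Hbb-bs* at 113 and *Hbb-bh1* at 115. The alpha-like genes have the same pattern, shown with the bases that differ from *Hba-a1* in capitals.

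Hba-a1: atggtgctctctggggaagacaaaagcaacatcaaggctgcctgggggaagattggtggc
Hba-x: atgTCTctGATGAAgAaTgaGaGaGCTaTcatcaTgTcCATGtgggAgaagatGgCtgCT

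*Hba-a2* differs from *Hba-a1* at 1 of 426 coding bases and *Hba-x* at 163. None of the stretches as long as a read in the transcripts of *Hbb-y*, *Hbb-bh1*, *Hba-x*, *Alas2* or *Slc4a1* occurred in a transcript of another gene. For the adult genes, 56.3% of the stretches of *Hba-a1* and 74.2% of those of *Hba-a2* occurred in the other, as did 62.5% of those of *Hbb-bs* and 54.7% of those of *Hbb-bt*. These stretches stand for single reads, while the reads came in pairs that can be placed by either mate. The percentages are therefore not the shares of reads that were lost, which were not measured. The authors kept uniquely mapped reads, so the division of reads within each adult pair is uncertain, and the levels of the adult genes may count only part of their reads.

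RefSeq start sites (GRCm38.p6) with promoter sequence were matched for 7 of the 9 genes, and not for *Hbb-bh1* and *Slc4a1*. The last 120 bases before the start are shown 5′ to 3′ on the strand of the gene, because the adult genes moved together and against the embryonic genes in the results. Capitals mark 3 short motifs on either strand. CACCC is the core of sites of KLF1 and its relatives. CCAAT is the core of the box that the factor NF-Y binds. GATAA is the core of sites of GATA1 and its relatives. The stretches are chr7:103853208-103853327 for *Hbb-y*, chr7:103827929-103828048 for *Hbb-bs*, chr7:103813924-103814043 for *Hbb-bt*, chr11:32276480-32276599 for *Hba-x*, chr11:32283552-32283671 for *Hba-a1* and chrX:150547297-150547416 for *Alas2*.

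Hbb-y: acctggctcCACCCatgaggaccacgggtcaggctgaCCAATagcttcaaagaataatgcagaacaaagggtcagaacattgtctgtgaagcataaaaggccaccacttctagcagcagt
Hbb-bs: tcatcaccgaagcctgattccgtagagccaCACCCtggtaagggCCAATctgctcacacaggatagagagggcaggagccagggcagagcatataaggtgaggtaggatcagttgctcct
Hbb-bt: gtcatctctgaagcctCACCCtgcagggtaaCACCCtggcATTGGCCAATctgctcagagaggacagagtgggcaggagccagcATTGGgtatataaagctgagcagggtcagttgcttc
Hba-x: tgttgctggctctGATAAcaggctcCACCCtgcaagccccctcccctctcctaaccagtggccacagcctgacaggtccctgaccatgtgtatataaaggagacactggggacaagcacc
Hba-a1: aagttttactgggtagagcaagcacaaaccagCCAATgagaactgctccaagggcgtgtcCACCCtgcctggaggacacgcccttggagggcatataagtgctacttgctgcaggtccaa
Alas2: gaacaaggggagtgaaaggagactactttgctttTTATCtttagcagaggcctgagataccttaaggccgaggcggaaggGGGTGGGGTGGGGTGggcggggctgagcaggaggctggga

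*Hba-a2* shares a run of 117 of these bases with *Hba-a1*. In *Hbb-bt* the CCAAT on the gene's strand (positions -75 to -71) adjoins a match on the other strand (-80 to -76), and no matches of different motifs overlapped. Over the 250 bases before the start, the CACCC motif and the GATAA motif matched in all 7 genes, and the CCAAT motif in the 5 genes other than *Hba-x* and *Alas2*. Of the 32851 mouse promoters in the table, 52.0% held the CACCC motif, 33.9% the CCAAT motif, 22.6% the GATAA motif and 3.45% all 3 within the same length. Among the beta-like genes, *Hbb-y*, which fell over the time course, and *Hbb-bs*, which rose, had 1 match of each kind. *Hbb-bt*, which also rose, had 3 matches of CACCC, 3 of CCAAT and 1 of GATAA. Among the alpha-like genes, *Hba-x*, which fell, had no CCAAT match, while *Hba-a1* and *Hba-a2*, which rose, had 1 each. No promoter of *Hbb-bh1* was seen, and the part of these letters in the changes was not tested.

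Each library held 48436716 to 62279460 mapped reads, and globin genes took 0.407% to 0.525% of them at E15.5, 0.404% to 0.474% at E18.5, 1.18% to 1.92% at P5 and 1.03% to 1.45% at P8. Intervals given for reads cover counting error only. A level is in CPM, the reads of a gene scaled to the mapped reads of its library. A gene was called when its log2 fold change exceeded 1 in either direction with an FDR under 0.05 in edgeR's quasi-likelihood test, in a fit of all 12 libraries over 15994 genes, and SE is the standard error of the log2 fold change. Some libraries held markers of neighbouring organs. The summed level of 7 heart muscle markers was 1159 and 1461 CPM in E15.5 replicates 1 and 2, against 58.6 CPM in replicate 3. The markers of thymocytes and thymus summed to 52.3 CPM in E15.5 replicate 2 and to 185 and 350 CPM in P8 replicates 1 and 2, against 14.6 CPM in P8 replicate 3. The 6 lung markers summed to 1378 CPM or more in every library. The markers of hepatocytes, the cells beside which red cells form in the fetal liver, summed to 1.17 to 6.27 CPM in the 9 libraries up to P5 and to 14.9, 138 and 47.6 CPM at P8.

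The embryonic globin genes fell in both intervals up to P5 and were close to absent after birth. *Hbb-y* was at 240, 283 and 263 CPM in the E15.5 libraries, at 56.1, 30.8 and 55.5 CPM at E18.5, at 0.161, 0.227 and 0.247 CPM at P5 and at 1.35, 0.866 and 0.148 CPM at P8. The groups did not overlap up to P5, and P8 replicate 3 lay below the P5 libraries while the other P8 libraries lay above them. Between the embryonic time-points *Hbb-y* had a log2 fold change of -2.46 (SE 0.30, edgeR FDR = 7.1e-04), and between E18.5 and P5 of -7.72 (SE 0.48, edgeR FDR = 3.7e-08). In reads, the 3 E18.5 libraries held 7372 and the 3 P5 libraries 36, a level 226-fold higher at E18.5 (95% exact interval 163 to 323).

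*Hba-x*, the alpha-like partner of *Hbb-y*, was at 77.2, 61.9 and 65.2 CPM at E15.5 and at 17.8, 9.30 and 14.7 CPM at E18.5. It had 3, 0 and 1 reads in the P5 libraries and 19, 5 and 0 reads in the P8 libraries, where a count of 0 allows up to 0.0619 CPM in P5 replicate 2 and 0.0493 CPM in P8 replicate 3. No embryonic library overlapped a later time-point. The first fall had a log2 fold change of -2.28 (SE 0.34, edgeR FDR = 0.0015), and DESeq2 did not call it (-2.27, adjusted p = 0.062). From E18.5 to P5, 2155 reads were followed by 4, a level 594-fold higher at E18.5 (95% exact interval 232 to 2182).

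*Hbb-bh1* was the least abundant of the 3, at 5.07, 4.11 and 3.23 CPM at E15.5 and 0.944, 1.26 and 1.15 CPM at E18.5. Its log2 fold change was -1.87 (SE 0.45, edgeR FDR = 0.013), and this call was lost without E18.5 replicate 1 (-1.77, edgeR FDR = 0.056). Without the 4 libraries with heart or thymus markers E15.5 was replicate 3 alone, and the log2 fold change was -1.53. After birth it had 3, 0 and 0 reads at P5 and 1, 4 and 0 reads at P8. The 175 reads at E18.5 against 3 at P5 give a level 64.3-fold higher at E18.5 (95% exact interval 21.7 to 315). Among the embryonic beta-like reads, *Hbb-bh1* made up 1.21% to 2.06% at E15.5 and 1.66% to 3.94% at E18.5, and the rest were *Hbb-y*.

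**Figure D1:**
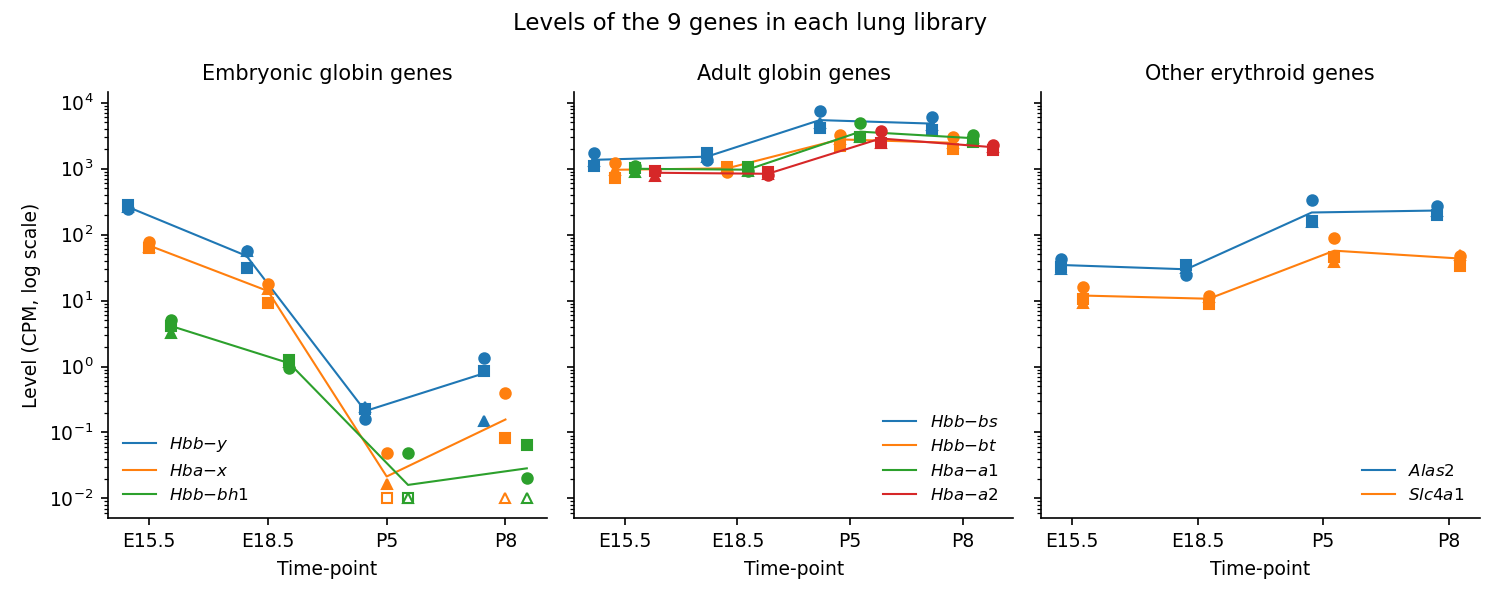
Level of the 9 genes in CPM (log axis) at the 4 time-points, with circles, squares and triangles for replicates 1, 2 and 3 and lines through the group means. Open symbols at 0.01 stand for libraries with no read. The embryonic genes fall to below 1.4 CPM after birth, while the adult genes, *Alas2* and *Slc4a1* lie higher at P5 and P8 than in any embryonic library.

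The embryonic share of the reads of each globin family shows the switch within each library. Of the beta-like reads (*Hbb-y*, *Hbb-bh1*, *Hbb-bs* and *Hbb-bt*), the embryonic genes made up 7.77%, 13.7% and 10.7% in the E15.5 libraries and 2.49%, 1.14% and 2.17% at E18.5. At P5 they made up 0.00196%, 0.00361% and 0.00324%, and at P8 0.0154%, 0.0159% and 0.00211%. *Hba-x* made up 3.69%, 3.12% and 3.84% of the alpha-like reads at E15.5 and 1.02%, 0.481% and 0.845% at E18.5, and at most 0.00704% (P8 replicate 1, 95% Wilson interval 0.0045% to 0.0110%) in the 6 postnatal libraries. The shares of the time-points E15.5, E18.5 and P5 did not overlap for either family. Each library had a lower embryonic share among alpha-like than among beta-like reads. After birth this order rests on 19 reads of *Hba-x* or fewer per library. In P5 replicate 1 and P8 replicate 3 the 95% Wilson intervals of the alpha-like and beta-like shares overlapped. Any reads of the adult genes that could not be placed are missing from these denominators. No test was made of a share.

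The library order of the shares at E18.5 was the same for both families, with the lowest value in replicate 2. At P8, replicates 1 and 2 held 66 and 53 reads of *Hbb-y* and replicate 3 held 9. The reads of *Hba-x* followed with 19, 5 and 0. P8 replicates 1 and 2 are also the libraries with the highest thymus markers, and their part in these reads was not tested. The *Hba-x* reads per *Hbb-y* read were 0.219 to 0.321 at E15.5 and 0.265 to 0.317 at E18.5, and these ranges overlapped.

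**Figure D2:**
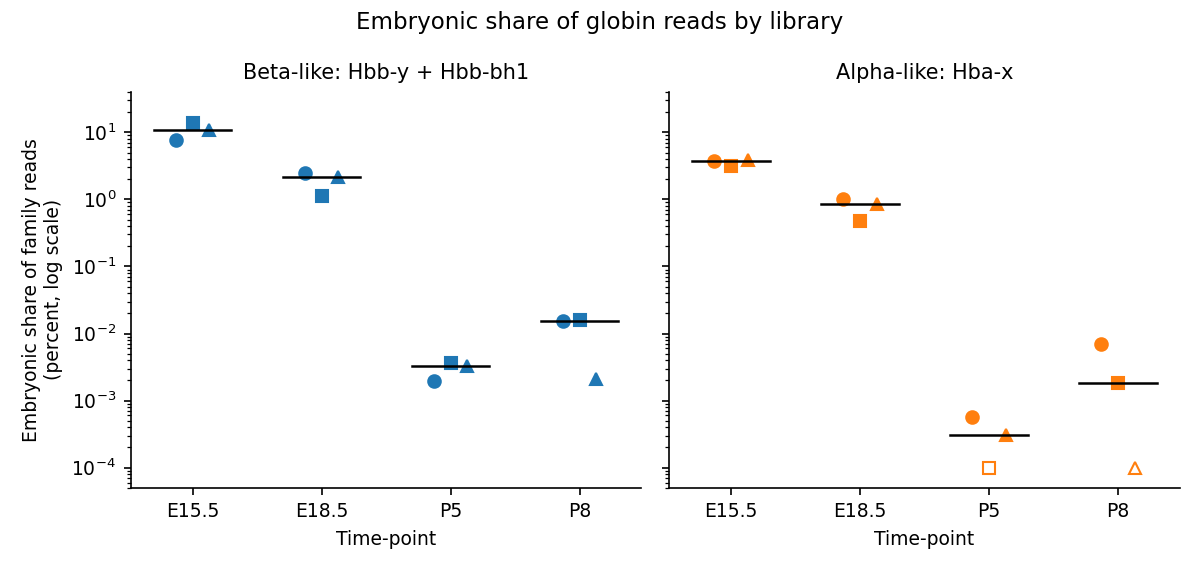
Embryonic genes as a percentage of the reads of the beta-like family (left) and of the alpha-like family (right) in each library, on a log axis. Symbols mark replicates 1 (circle), 2 (square) and 3 (triangle), black lines mark medians, and open symbols at 0.0001 stand for libraries with no embryonic read. The medians fall from 10.7% to 2.17% and 0.00324% for the beta-like family up to P5.

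The adult globin genes were not called between the embryonic time-points and rose after birth. *Hbb-bs*, the more abundant adult beta gene, was at 1700, 1081 and 1285 CPM at E15.5, at 1336, 1713 and 1495 CPM at E18.5, at 7355, 4085 and 4816 CPM at P5 and at 5948, 3851 and 4591 CPM at P8. Every postnatal library lay above every embryonic library, and the P5 and P8 libraries overlapped. Between the embryonic time-points its log2 fold change was 0.17 (SE 0.24, edgeR FDR = 0.66), and between E18.5 and P5 it was 1.94 (SE 0.25, edgeR FDR = 1.7e-05). *Hbb-bs* stood 23rd by mean level among all genes at E18.5 and 4th at P5.

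*Hbb-bt*, its near-identical neighbour, had a mean of 1007 ± 94.7 CPM (SD, n = 3) at E18.5, and at P5 this was 2765 ± 534 CPM. It rose by 1.55 on the log2 scale (SE 0.21, edgeR FDR = 2.7e-05). *Hba-a1* was at 926, 1048 and 908 CPM at E18.5 and at 4893, 3016 and 2954 CPM at P5. The rise of *Hba-a1* was 2.01 on the log2 scale (SE 0.20, edgeR FDR = 1.5e-06). *Hba-a2* rose from 833 ± 38.9 to 2853 ± 733 CPM, by 1.87 on the log2 scale (SE 0.17, edgeR FDR = 6.3e-07). With the reads of each pair summed, the log2 fold change was 1.95 for the alpha pair (SE 0.18) and 1.79 for the beta pair (SE 0.23).

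Within the beta pair the division of reads moved over time. *Hbb-bt* took 41.7%, 40.03% and 42.2% of the reads of the pair at E15.5 and 40.2%, 38.3% and 41.6% at E18.5. It took 30.8%, 35.1% and 36.8% at P5 and 33.3%, 34.1% and 34.4% at P8, and no postnatal library reached an embryonic library. *Hba-a1* took 52.5% to 54.5% of the reads of the alpha pair in the embryonic libraries, 55.0% to 57.0% at P5 and 56.4% to 58.5% at P8. Any unplaced reads bear on both shares, and P5 replicate 1 had the lowest *Hbb-bt* share of the 12 libraries and the highest *Hba-a1* share of the P5 libraries.

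Per kilobase of exon, the order at E15.5 was *Hbb-bs* (1765 ± 410 CPM per kb), *Hbb-bt* (1362 ± 351), *Hba-a2* (1295 ± 133), *Hba-a1* (1222 ± 136), *Hbb-y* (414 ± 33.8), *Hba-x* (72.6 ± 8.59), *Alas2* (14.4 ± 2.69), *Hbb-bh1* (6.74 ± 1.503) and *Slc4a1* (2.43 ± 0.714). Each of the 4 adult genes overlapped its neighbour in this order over the 3 libraries, although *Hbb-bs* lay above both alpha genes, and the 5 genes from *Hbb-y* down were each apart from their neighbours. At P5 *Hbb-bs* was at 7056 ± 2234 CPM per kb, *Hba-a1* at 4460 ± 1357, *Hba-a2* at 4277 ± 1099 and *Hbb-bt* at 3933 ± 759, and *Alas2* and *Slc4a1* were at 89.8 ± 42.7 and 11.6 ± 5.47. Any reads that could not be placed lower the values of the 4 adult genes on this scale.

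*Alas2* and *Slc4a1* rose in the same interval as the adult globins, with larger fold changes, a difference that was not tested. *Alas2* was at 41.9, 32.2 and 29.6 CPM at E15.5, at 24.1, 34.1 and 31.0 CPM at E18.5, at 334, 159 and 154 CPM at P5 and at 269, 197 and 227 CPM at P8. Every postnatal library was above every embryonic library, with P5 replicate 1 highest. Between E18.5 and P5 *Alas2* rose by 2.96 on the log2 scale (SE 0.30, edgeR FDR = 2.0e-06), and by 2.45 without P5 replicate 1. *Slc4a1* was at 11.7, 8.77 and 11.5 CPM at E18.5 and at 87.5, 45.1 and 38.1 CPM at P5. *Slc4a1* rose by 2.52 (SE 0.32, edgeR FDR = 1.5e-05), and by 2.02 without P5 replicate 1.

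Set against the adult globin reads of the same library, *Alas2* had 7.68 to 8.65 reads per 1000 at E15.5, 6.08 to 7.26 at E18.5, 11.9 to 17.4 at P5 and 18.6 to 19.2 at P8. The 4 ranges did not overlap, and the P8 libraries lay closest together. *Slc4a1* had 2.42 to 3.22 reads per 1000 at E15.5, 1.87 to 2.94 at E18.5, 2.94 to 4.55 at P5 and 3.29 to 4.02 at P8, with less separation. The *Slc4a1* reads per *Alas2* read were 0.315 to 0.379 at E15.5, 0.257 to 0.484 at E18.5, 0.248 to 0.283 at P5 and 0.171 to 0.213 at P8. The ranges of E18.5 and P5 overlapped, and the P8 range lay below the others.

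**Figure D3:**
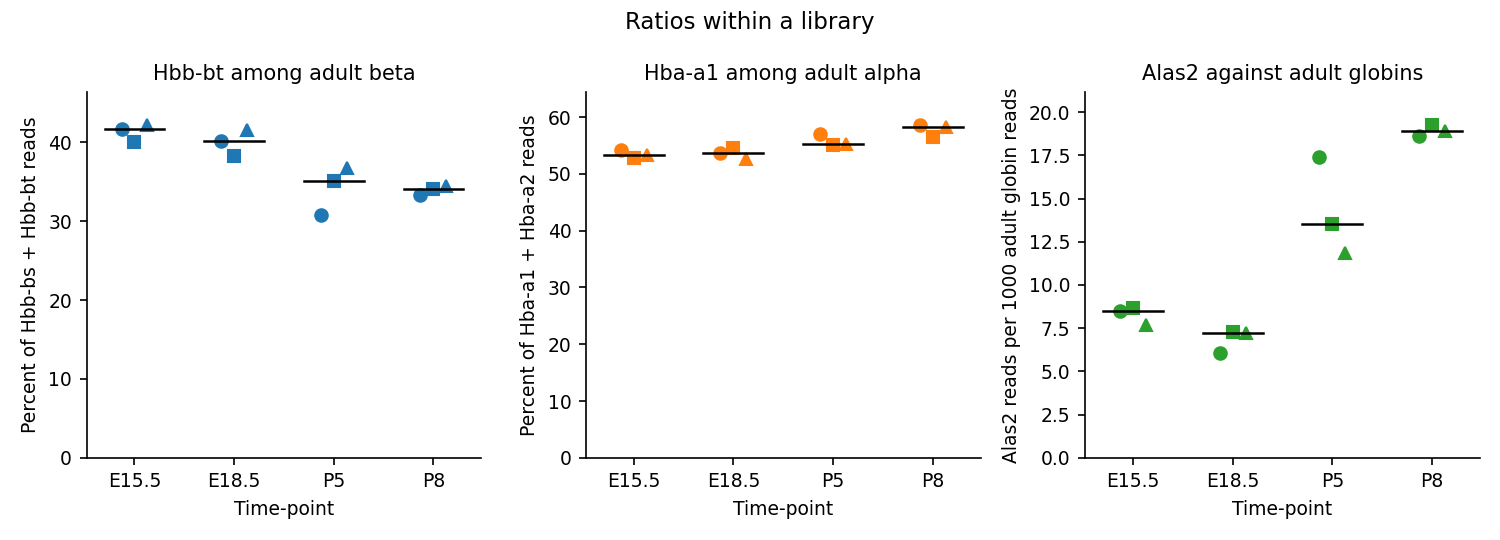
Ratios between genes within each library at the 4 time-points: *Hbb-bt* as a percentage of the adult beta reads, *Hba-a1* as a percentage of the adult alpha reads, and *Alas2* reads per 1000 adult globin reads. Circles, squares and triangles are replicates 1, 2 and 3, and black lines are medians. The *Hbb-bt* percentage lies lower and the *Alas2* ratio higher in all 6 postnatal libraries.

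The calls over the 9 genes were as follows. From E15.5 to E18.5, 3 genes were called, all lower and all embryonic globins, where 3.04% of all genes tested were called (1.59% higher and 1.46% lower). In this comparison the groups did not overlap for the same 3 genes, against 38.1% of all genes (18.3% higher and 19.8% lower). From E18.5 to P5 all 9 were called, 6 higher and 3 lower, where 26.8% of all genes were called (17.5% higher and 9.34% lower), and the groups did not overlap for any of the 9, against 77.1% of all genes (34.4% higher and 42.6% lower). Across the whole course, E15.5 to P8, all 9 were again called in the same directions, where 32.3% of all genes were called (20.9% higher and 11.5% lower) and 77.1% did not overlap (35.1% higher and 42% lower). Between these time-points the log2 fold change was -8.35 for *Hbb-y* (SE 0.43), 1.91 for *Hbb-bs* (SE 0.25), 2.82 for *Alas2* (SE 0.30) and 1.94 for *Slc4a1* (SE 0.31).

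From P5 to P8, 0 of the 9 were called by edgeR's quasi-likelihood test, where 2.96% of all genes were called (2.88% higher and 0.0875% lower), and 2 had an unadjusted p under 0.05, *Hbb-y* and *Hba-a2*. DESeq2 called 1 (*Hbb-y*, 1.91, adjusted p = 0.020), the edgeR likelihood-ratio test called *Hbb-y* and *Hba-x*, and limma on log2(CPM + 1) called 0. In the main test *Hbb-y* had a log2 fold change of 1.83 (SE 0.70, edgeR FDR = 0.088), which was 2.34 without P8 replicate 3 (edgeR FDR = 0.0080). Without the 4 libraries with heart or thymus markers P8 was replicate 3 alone, with 9 reads of *Hbb-y*, and the log2 fold change was -0.53. *Hba-a2* was the gene whose groups did not overlap, against 37% of all genes (20.8% higher and 16.3% lower), at 3698, 2463 and 2397 CPM at P5 and 2297, 1921 and 2097 CPM at P8. Its log2 fold change was -0.46 (SE 0.16, edgeR FDR = 0.066).

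**Figure D4:**
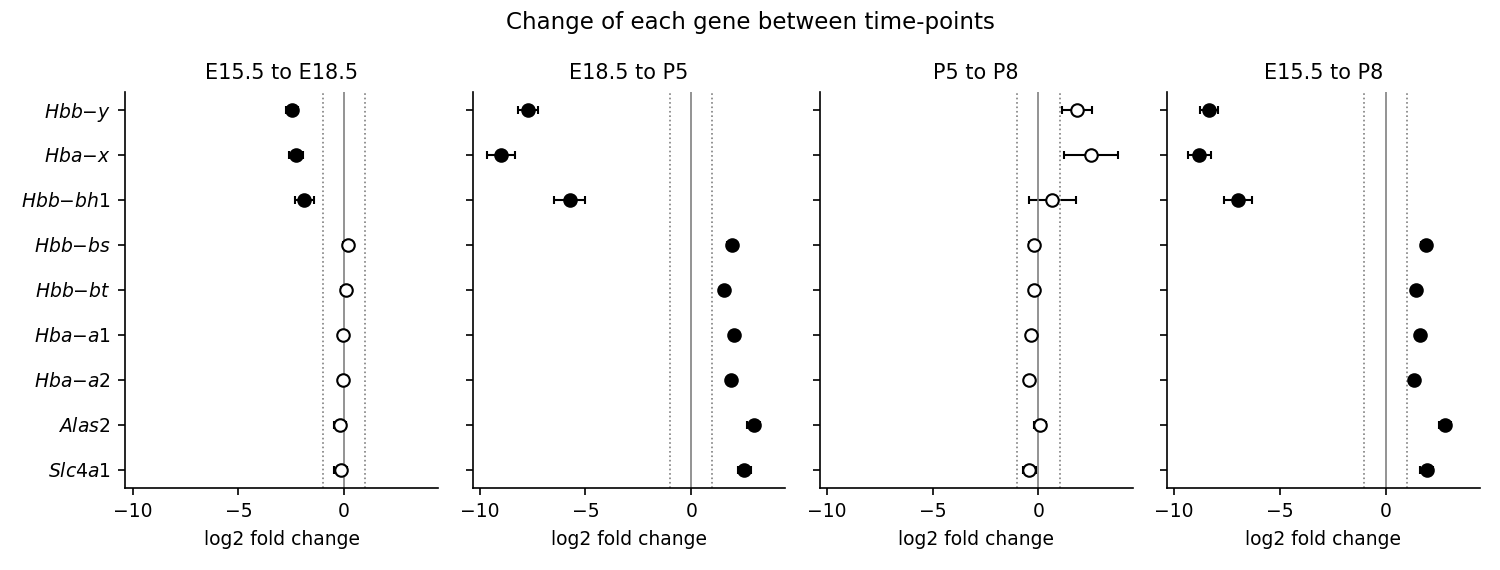
Log2 fold change of each gene in the 4 comparisons (points) with its SE (bars) from edgeR; a positive value is higher at the later time-point. Filled points are past both cutoffs, and dotted lines mark a log2 fold change of 1 in either direction. All 9 genes are filled in the comparisons of E18.5 with P5 and of E15.5 with P8, 3 between the embryonic and none between the postnatal time-points.

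P5 replicate 1 had higher levels of the adult globin genes, *Alas2* and *Slc4a1* than its littermates. Against the mean of the other P5 libraries it held 1.31 to 1.65 times the level of the 4 adult globin genes, 2.13 times that of *Alas2* and 2.11 times that of *Slc4a1*. It was the highest of the 3 P5 libraries for all 6 of these genes, for 11 of the 16 red cell membrane genes with reads at P5 and for 9 of the 10 red cell enzyme genes, against 19.0% of all genes tested. It was the highest for 7 of 12 haem synthesis genes (median ratio 1.03) and 3 of 10 erythroid transcription factors (0.937). Of 10 iron and erythropoietin genes it was the highest for 1 (1.007). Of the embryonic genes, *Hbb-y* was at 0.678 times the mean of the others and *Hba-x* at 5.86 times. *Hba-x* had 3, 0 and 1 reads in the P5 libraries and *Hbb-bh1* 3, 0 and 0. The values of the embryonic genes thus rest on few reads. Without P5 replicate 1, all 9 genes were still called from E18.5 to P5, and the 6 that rose did so by 1.37 to 2.45 on the log2 scale.

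The genes with the most similar course over the 12 libraries were sought among 15218 tested genes. Among the 5 nearest to *Hbb-bs* were *Ube2l6*, *Gjb6*, *Plxna4* and *P2ry2*, with a root mean square difference of 0.17 to 0.23 on the centred log2(CPM + 1) scale. *Ube2l6* had 24.9 ± 3.34 CPM at E18.5, and at P5 it had 81.9 ± 23.4 CPM. *Gjb6* was near absent before birth, with a mean of 0.0573 CPM in the E18.5 libraries, and its P5 mean was 2.8 CPM. As a ratio this rise was larger than that of *Hbb-bs*, whose mean rose 3.58-fold. The added 1 exceeds the E18.5 level of *Gjb6* and shrinks its change on this scale. The small difference of *Gjb6* from *Hbb-bs* therefore does not mean a similar fold change. Among the 5 nearest to *Slc4a1* were *Tent5c*, *Cd33*, *Arl11* and *Ccl9* at 0.28 to 0.29. Of these, *Arl11* was also below 1 CPM at E18.5 (0.946 ± 0.140 CPM). For *Hbb-y* the nearest were *Cym* (0.92), *Cldn6*, *B4galnt4*, *Emilin3* and *Vwa2* (1.56). The measure is not scaled for the size of a change, which was larger for *Hbb-y* than for *Hbb-bs*. The differences for these 2 genes therefore cannot be set against each other. *Cym* had 59.3 ± 5.75 CPM at E15.5 and 43.3 ± 12.1 CPM at E18.5, against 262 ± 21.4 and 47.5 ± 14.4 CPM for *Hbb-y*.

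Of the other haemoglobin genes, the theta-like *Hbq1b* rose between E18.5 (0.155 ± 0.0415 CPM) and P5 (1.03 ± 0.570 CPM) (2.82 on the log2 scale, SE 0.57, edgeR FDR = 7.1e-04). *Hbq1a*, beside it on chromosome 11, was at 0.0599 ± 0.0557 and 0.722 ± 0.214 CPM and was not in the count table. The pseudogene *Hbb-bh0*, next to *Hbb-y*, had 5, 11 and 10 reads in the E15.5 libraries and none in the other 9 libraries. *Hbb-bh2* and *Hbb-bh3* had no read in any library. Among the globins of other tissues, *Mb*, the myoglobin of heart and skeletal muscle, rose by 4.84 on the log2 scale after E18.5 (edgeR FDR = 2.9e-04), and *Cygb*, the globin of fibroblasts, by 1.67 (edgeR FDR = 5.9e-09). The heart muscle markers were at 56.1 to 93.2 CPM in sum at E18.5 and 118 to 288 CPM at P5, and their part in the change of *Mb* was not tested.

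Between E18.5 and P5, of 15 tested genes of the red cell membrane and skeleton 7 rose, 0 fell and 8 were not called, where 17.5% of all genes rose and 9.34% fell. The median log2 fold change was 1.22 over these 15, against -0.0024 over all genes. Those that rose include *Epb42*, which binds band 3 to the skeleton (2.76, SE 0.49, edgeR FDR = 2.4e-04), and *Tmod1*, which caps its actin filaments (2.52, edgeR FDR = 8.5e-04). *Tmod1* is also expressed in heart muscle and was at 9.41 and 10.4 CPM in the E15.5 libraries with heart markers and 1.26 CPM in the third, and it was the gene of this list called lower from E15.5 to E18.5 (-1.83, edgeR FDR = 0.026).

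Of 8 tested genes of red cell enzymes 2 rose and 0 fell, a share near the 17.5% of all genes that rose. These were *Trim10* (2.79, edgeR FDR = 1.6e-05), needed for red cell maturation, and *Bpgm* (1.66, edgeR FDR = 2.5e-06), whose product makes the regulator of oxygen binding 2,3-bisphosphoglycerate. *Hemgn* was at 1.5 on the log2 scale with an edgeR FDR of 0.077 and was called from E15.5 to P8 (1.88, edgeR FDR = 0.022). *Ahsp*, the alpha-globin chaperone, is not analysed here.

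Few other haem synthesis genes were called. Of 12 tested besides *Alas2*, from E18.5 to P5 1 rose and 0 fell (median log2 fold change 0.057), and the gene that rose was *Alas1*, the form of the first enzyme used outside the red cell lineage, from 45.3 ± 1.64 to 93.1 ± 2.14 CPM (1.13, SE 0.068, edgeR FDR = 2.8e-08). In the iron and erythropoietin list, 2 of 10 rose and 0 fell, again near the 17.5% of all genes that rose. These were *Tfr2* (2.12, edgeR FDR = 0.0014), the second transferrin receptor, and *Steap3* (1.097, edgeR FDR = 0.0022), an endosomal iron reductase. *Tfrc*, the transferrin receptor of dividing and haemoglobin-making cells, had 108 ± 20.1 CPM at E18.5 and at P5 69.7 ± 2.46 CPM, and did not pass the fold change cutoff (-0.54, edgeR FDR = 0.0042). *Erfe* and *Kit* were called only from E15.5 to P8, at -1.16 and 1.099.

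Of 8 erythroid transcription factors tested, from E18.5 to P5 1 rose and 0 fell, where 17.5% of all genes rose. This was *Nfe2* (1.94, edgeR FDR = 4.6e-07), which is also used by megakaryocytes. *Gata1*, the main erythroid GATA factor, had 0.700 ± 0.190 CPM at E18.5 and at P5 1.23 ± 0.299 CPM (0.91, edgeR FDR = 0.099). *Klf1*, which activates the adult beta-globin genes, was not in the count table and was at 0.496 ± 0.206 and 0.493 ± 0.408 CPM. *Myb*, a factor of immature blood cells that thymocytes also use, had 5.04, 5.99 and 5.79 CPM at P5 and 20.3, 25.1 and 9.93 CPM at P8 (1.70, edgeR FDR = 0.011). The thymus markers were higher in the same P8 libraries, replicates 1 and 2, and their part in this was not tested.

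Of 10 regulators of globin switching tested, between E18.5 and P5 1 rose and 5 fell (median log2 fold change -0.65), where 17.5% of all genes rose and 9.34% fell. *Lin28b* and *Igf2bp1*, RNA-binding proteins of the fetal programme, changed by -4.95 (SE 0.53, edgeR FDR = 3.6e-06) and -3.45 (SE 0.091, edgeR FDR = 1.2e-10). *Lin28b* had 50, 56 and 86 reads in the E18.5 libraries and 3, 2 and 1 at P5. *Bcl11a*, a repressor of embryonic and fetal globin genes in red cells that is also used in other cell types, fell from 28.0 ± 3.46 to 4.54 ± 0.737 CPM (-2.54, SE 0.17, edgeR FDR = 6.7e-08). *Igf2bp3* and *Sox6* also fell, by 1.67 and 1.39 on the log2 scale. From E15.5 to P8 the log2 fold change was -1.86 for *Igf2bp3* but -0.031 for *Sox6* (edgeR FDR = 0.89). *Ikzf1*, Ikaros, rose by 1.88 (edgeR FDR = 6.4e-05) and is abundant in lymphocytes. These genes are expressed in several cell types of the lung, and the cells that carry their reads were not tested.

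**Figure D5:**
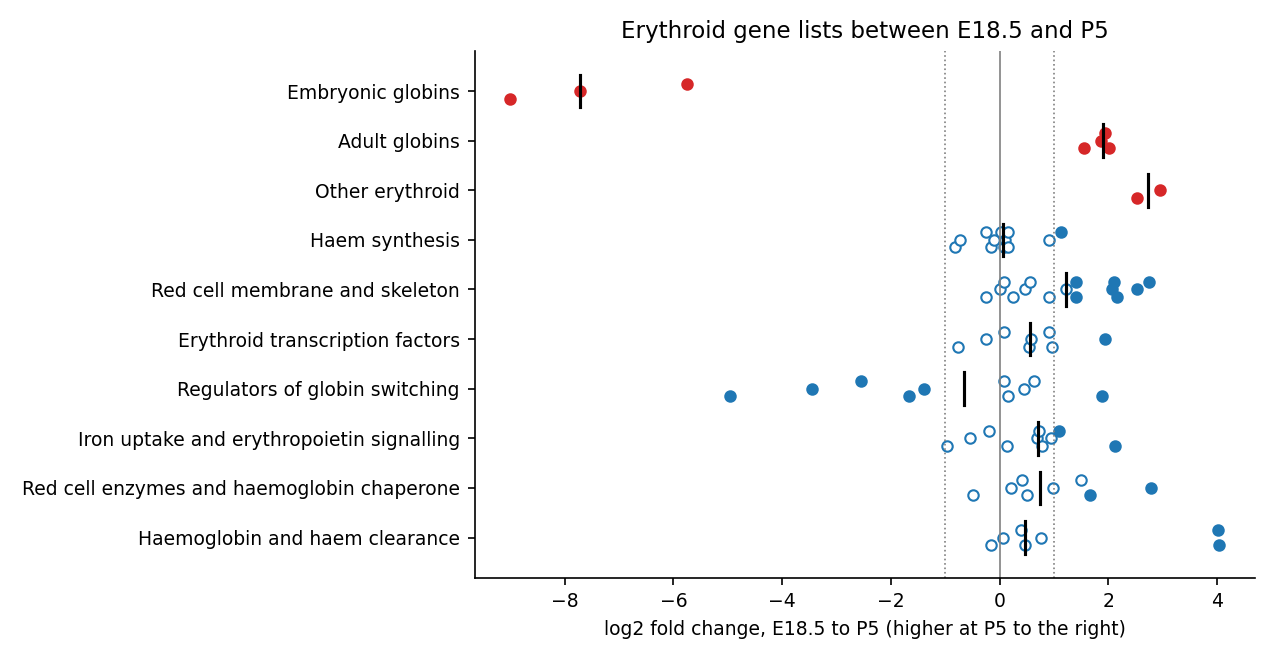
Change between E18.5 and P5 of each tested gene (points, log2 fold change) in the 3 groups of the 9 genes (red) and in 7 other lists (blue). Filled points are past both cutoffs, black bars are list medians and dotted lines mark a log2 fold change of 1 in either direction. The adult globins lie to the right, as do 7 of 15 membrane genes that are filled. The other membrane genes are open, some of them near 0. Haem synthesis genes lie around 0, and 5 of 10 switching regulators lie to the left.

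Of 7 tested genes that deal with free haemoglobin and haem, from E18.5 to P5 2 rose and 0 fell, where 17.5% of all genes rose. These were *Hp*, haptoglobin, which binds free haemoglobin (12.2 ± 4.94 to 185 ± 15.7 CPM, 4.01, edgeR FDR = 2.7e-08), and *Cd163*, the macrophage receptor for that complex (4.04, edgeR FDR = 2.7e-04). *Hp* was also called from E15.5 to E18.5 (1.47, edgeR FDR = 0.0023). *Hpx*, which binds free haem, was called from E15.5 to P8 (3.85, edgeR FDR = 4.4e-04), where the hepatocyte markers were also higher. Of the markers of megakaryocytes and platelets, which also reach the lung with the blood, between E18.5 and P5 4 of 8 rose and 0 fell, and their summed level was 15.1 to 23.1 CPM at E18.5 and 34.8 to 42.5 CPM at P5. Of the 7 markers of cycling cells, 6 fell, and 3 of 8 thymus markers, 1 of 7 heart muscle markers and 1 of 6 lung markers rose, while 1 lung marker fell and 0 of 5 hepatocyte markers were called. Their part in the changes of the 9 genes was not tested.

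The lists had few calls between the embryonic and between the postnatal time-points. From E15.5 to E18.5, 1.59% of all genes rose and 1.46% fell. Among the lists of genes of the pathway the calls were *Tmod1* and *Hp* alone. Besides these, 7 of 7 heart muscle and 3 of 5 hepatocyte markers fell and 1 lung marker rose. From P5 to P8, 2.88% of all genes rose and 0.0875% fell. The calls in the pathway lists were *Myb* and *Ikzf1* (1.07, edgeR FDR = 0.019), besides 6 of 8 thymus markers and 5 of 5 hepatocyte markers that rose. Across E15.5 to P8, 20.9% of all genes rose and 11.5% fell. In this comparison 3 of 15 membrane genes, 3 of 8 enzyme genes, 3 of 7 clearance genes and 2 of 8 transcription factors rose. So did 5 of 10 iron and erythropoietin genes and 1 of 12 haem synthesis genes, while 1 iron and erythropoietin gene fell. Of 10 switching regulators, 4 fell and 1 rose.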

How the data were processed

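The authors aligned 101-nt paired-end reads to mm10 with TopHat2 2.1.1 and Bowtie2 2.3.4, kept uniquely mapped reads and counted them on Gencode genes with HTSeq 0.10.0. They deposited raw counts for 16152 genes, and CPM (reads scaled to the total mapped reads) for 51825 genes. All CPM values were whole reads within 0.01, and reads of genes outside the count table are these. The percent spliced in table was not used. The 15994 genes that reached 1 CPM in 3 or more libraries were tested with edgeR 4.0.16 (TMM, quasi-likelihood, R 4.3.3), adjusted by Benjamini-Hochberg over all genes tested, in a fit of 12 libraries. limma 3.58.1 and DESeq2 1.42.0 served as alternatives. The test was tested on simulated data. On reads recovered from CPM the test called 4268 genes from E18.5 to P5, against 4289. Standard errors are the log2 fold change over the root of F. Intervals are 95% exact (reads of 2 time-points) or Wilson (shares). The 9 genes and all lists were chosen with earlier results of these data known. Named list genes are up to 4 per list with the largest change from E18.5 to P5 among those called in any comparison, plus *Gata1*, *Klf1*, *Bcl11a*, *Ahsp*, *Tfrc* and *Lin28b*; some genes that the rules name are not reported here. *Igf2bp3* and *Sox6* were named after their values were seen. The nearest genes by course were those with a mean of at least 1 CPM and the smallest root mean square difference of centred log2(CPM + 1). Same-numbered replicates were compared by the correlation of their deviations.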

Additional observations from a re-analysis of the deposited data

How the results depend on the processing

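The counts of called genes among the 9 (3, 9, 0 and 9 in the 4 comparisons) were recomputed under 26 alternatives, 2 of them chosen after seeing the data (reads recovered from the CPM table, and the 4 libraries with heart or thymus markers left out). The latter leaves 1 library each at E15.5 and P8, assumed to vary like those of E18.5 and P5, so its calls are no measure of what the 4 libraries contribute. From P5 to P8 the count went from 0 to 1 with DESeq2 and to 2 with the likelihood-ratio test, and with libraries left out in turn it ranged from 0 to 1. From E15.5 to E18.5 it was 2 with DESeq2 (*Hba-x*, adjusted p = 0.062), without E18.5 replicate 1, without the 4 libraries and with at least 5 CPM in 3 libraries, a filter that removes *Hbb-bh1* and so gives 2, 8, 0 and 8. No called change reversed. The replicate numbers pair no samples: correlations of same-numbered deviations ran from -0.29 to 0.27. With the replicate block the counts were 3, 9, 0 and 9, and over all genes 456, 4308, 414 and 5171.

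Fold changes of the embryonic genes rest on few postnatal reads, and against libraries with no read they depend on the prior count and are no bounds. From E18.5 to P5, *Hbb-bh1* ranged from -8.92 (without P5 replicate 1, the only P5 library with its reads) to -1.06 (limma on log2(CPM + 1), where the pseudocount exceeds the postnatal level) and *Hba-x* from -10.21 to -3.83. From E15.5 to P8, *Hba-x* was -10.57 without P8 replicate 1 and -14.76 without the 4 libraries. The adult genes, *Alas2* and *Slc4a1* kept log2 fold changes of 1.37 to 3.17 from E18.5 to P5. Over all genes, FDR alone gave 3441, 11369, 2872 and 12197 calls in place of 487, 4289, 474 and 5174. From E15.5 to E18.5, limma on log2(CPM + 1) gave 150, the 5 CPM filter 292, and 284 to 578 were called with a library left out. From P5 to P8 these were 286, 275 and 210 to 711. With 1 library at E15.5 and at P8 they were 187 and 94.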
